A study of Mus musculus with 58 samples.

Results

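Chromatin-associated RNA of 5 X-linked genes that encode chromatin regulators, Suv39h1, Bcor, Bcorl1, Phf6 and Hcfc1, was followed through Xist-mediated silencing in female mouse cells. The genes were chosen by name, by a rule that uses no measured value, although earlier results of these data were known. They are 5 of the 22556 genes in the count tables and of the 908 that lie on the X, and all 5 are, with 241 others, among the X-linked genes for which the series gives an allelic ratio (the genes with a ratio). The cells are embryonic stem cells (ES) with an X chromosome from the 129S strain, called Dom, and an X from Mus musculus castaneus, called Cast. In all lines the promoter of Xist on the Dom X was replaced by a TetOn promoter, so that doxycycline at 1 ug/mL silences the Dom X while the Cast X stays active.

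RNA bound to chromatin (ChrRNA-seq) was sequenced from 58 libraries in 28 groups, of which 26 hold 2 libraries and 2 hold 3. ES cells were taken before doxycycline (day 0) or after 1 day, and cells in differentiation towards neural precursor cells (NPC) after 3 or 6 days of doxycycline, for 13, 13, 16 and 16 libraries. WT is the parental line. SPOC carries a mutated SPOC domain of SPEN, the protein through which Xist recruits a corepressor. In PCGF35 the Polycomb proteins PCGF3 and PCGF5 carry an FKBP12 tag and are degraded by dTAG-13, given at 100 uM per the labels from 12 h before doxycycline, and PCGF35 without dTAG-13 is the untreated control. DelPID lacks the part of Xist, the B/C repeat, that recruits Polycomb complexes. PCGF35_SPOC and DelPID_SPOC combine these changes with the SPOC mutation, which for DelPID_SPOC is stated in the sample titles alone. WT and DelPID were analysed only at NPC days 3 and 6. All lines derive from 1 parental clone. Replicates of the SPOC lines are separate clones (C11, D9 and H1 of SPOC, F10 and F6 of PCGF35_SPOC, A8 and G3 of DelPID_SPOC), while the other groups hold cultures of 1 line, so that p-values cover the spread between these cultures and clones.

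Xist RNA coats the X from which it is made, and the genes beneath it lose transcription through SPEN and through Polycomb marks on their histones. Some of the genes so silenced encode chromatin proteins. SUV39H1 is a histone methyltransferase that trimethylates lysine 9 of histone H3 in pericentric heterochromatin. BCOR and BCORL1 are related corepressors that assemble the Polycomb complex PRC1.1, in which BCOR and PCGF1 bring the ubiquitin ligase RING1 together with KDM2B, a protein that binds unmethylated CpG islands. PHF6 carries zinc fingers of the extended PHD type and binds the NuRD remodelling complex and the nucleolar factor UBTF. HCF-1, the product of Hcfc1, is a scaffold that joins transcription factors to histone methyltransferases, to OGT and to BAP1.

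The genes spread over the arm of the X that lies before Xist (X:103460372-103483233, mm10). Suv39h1 (X:8061170-8074760, minus strand) and Bcor (X:12036737-12160355, minus strand) lie farthest from Xist, at 95.4 and 91.3 Mb. Bcorl1 (X:48341357-48406728, plus strand) lies at 55.1 Mb and Phf6 (X:52912213-52956961, plus strand) at 50.5 Mb. Hcfc1 (X:73942791-73966357, minus strand) is the nearest, at 29.5 Mb. Fragments were counted over whole transcripts, introns included, on the annotated strand. The span of Bcor also holds a gene on the same strand, 2900008C10Rik (X:12134453-12160346), which had 0 fragments in all 58 libraries. The counting settings given by the study name no option for fragments shared by overlapping genes. This 0 thus cannot show that the gene is silent, and such fragments may be missing from Bcor.

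The promoters of the genes are the elements whose output is read in this assay, and 4 of the 5 genes matched a RefSeq start site of assembly GRCm38.p6 by symbol. Each window runs from 250 bases before to 50 bases after the start, 5′ to 3′ on the strand of the gene. Capitals mark the motifs searched on both strands (the TATA box TATAAA, the CCAAT box, the GC box GGGCGG, the ETS-type motif CCGGAAGT, the NRF1-type motif GCGCATGC and the YY1-type motif AAGATGGC), and no match overlaps another in these windows.
Suv39h1 promoter (X:8074711-8075010): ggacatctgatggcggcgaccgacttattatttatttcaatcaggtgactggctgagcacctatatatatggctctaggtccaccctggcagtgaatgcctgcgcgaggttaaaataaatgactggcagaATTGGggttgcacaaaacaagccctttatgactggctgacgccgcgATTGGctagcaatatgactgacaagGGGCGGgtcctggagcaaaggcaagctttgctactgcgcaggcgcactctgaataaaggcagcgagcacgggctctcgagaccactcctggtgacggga
Bcor promoter (X:12160306-12160605): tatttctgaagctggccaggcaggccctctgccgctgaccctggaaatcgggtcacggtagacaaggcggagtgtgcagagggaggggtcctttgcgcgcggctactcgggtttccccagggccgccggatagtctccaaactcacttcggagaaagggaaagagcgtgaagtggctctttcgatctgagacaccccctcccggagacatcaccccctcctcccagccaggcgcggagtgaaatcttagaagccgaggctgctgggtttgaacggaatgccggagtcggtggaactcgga
Bcorl1 promoter (X:48341108-48341407): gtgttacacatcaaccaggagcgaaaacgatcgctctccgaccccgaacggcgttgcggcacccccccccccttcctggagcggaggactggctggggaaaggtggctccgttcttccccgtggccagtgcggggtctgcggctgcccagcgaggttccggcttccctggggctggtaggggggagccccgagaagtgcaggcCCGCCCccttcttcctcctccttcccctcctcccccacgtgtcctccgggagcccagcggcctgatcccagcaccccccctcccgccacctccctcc
Hcfc1 promoter (X:73966308-73966607): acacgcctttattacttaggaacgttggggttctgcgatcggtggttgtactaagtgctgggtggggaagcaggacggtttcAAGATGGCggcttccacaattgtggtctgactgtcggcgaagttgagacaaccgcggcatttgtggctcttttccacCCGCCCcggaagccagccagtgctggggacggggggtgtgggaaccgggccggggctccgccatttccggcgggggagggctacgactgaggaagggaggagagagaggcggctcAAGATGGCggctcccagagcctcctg
None of the 4 windows held TATAAA, which 13.6% of the 32851 promoters of the same length held. The window of Hcfc1 held AAGATGGC at 2 positions, against 2.75% of all promoters with at least 1, and it also held GGGCGG. The windows of Suv39h1 and Bcorl1 held GGGCGG as well, against 35.7% of all promoters. Suv39h1 had 2 copies of CCAAT, against 37.4% of promoters with any, and Bcor had none of the motifs. The windows had 15 (Suv39h1) or 21 (the other 3 genes) CpG dinucleotides, where the median promoter had 7. Suv39h1 has a further RefSeq start with the window X:8074312-8074611 and Bcor one that is shifted by 9 bases, and these are not printed. The further window of Suv39h1 differed from the printed one, with AAGATGGC, GGGCGG, no CCAAT and 37 CpG dinucleotides.

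Depth ran from 2292261 fragments in DelPID_NPC_d6 replicate 1 to 30005305 in clone G3 of DelPID_SPOC_ES_d0. The Dom share of autosomal fragments lay between 0.463 and 0.519. Xist RNA had 34.2 to 135 CPM (counts scaled to 1000000 fragments per library) on day 0 and at least 2377 CPM after doxycycline. Summed markers of pluripotent cells (Pou5f1, Nanog, Klf2, Esrrb, Zfp42 and Tfcp2l1) had 1221 to 2120 CPM on day 0 and 350.1 to 1257 CPM on NPC day 6. Summed markers of neural precursors (Nes, Vim, Pax6, Sox1, Tubb3 and Pax3) had 27.6 to 112 CPM and 32.2 to 403 CPM, and Sox1 was at 0 in every library, so the cells of NPC day 6 are called by their culture and not as neural precursors.

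Before Xist was induced, both X chromosomes gave RNA from all 5 genes. The measure is the Dom share, the Dom fragments of a gene divided by its Dom and Cast fragments, given where at least 10 allelic fragments were counted. Over the 13 libraries of day 0 the Dom share of Suv39h1 ran from 0.443 over a median of 0.504 to 0.550. That of Bcor ran from 0.414 over 0.455 to 0.534, and that of Hcfc1 from 0.458 over 0.472 to 0.503. Suv39h1 lay about the value of 0.5 that equal RNA from both alleles gives. Bcor and Hcfc1 lay mostly below it, with 3 and 2 of 13 libraries above 0.5. Bcorl1 ran from 0.591 over 0.644 to 0.716, above 0.5 in 13 of 13 libraries and the highest of the 5 genes in each. Phf6 ran from 0.417 over 0.449 to 0.476, below 0.5 in every library and the lowest of the 5 in 9 of 13. Falls of the share are therefore compared with the day 0 of the same gene. Per kilobase of gene span, the median level over all libraries was 8.83 CPM per kb for Hcfc1, 2.63 for Suv39h1, 1.78 for Phf6, 0.432 for Bcor and 0.272 for Bcorl1. The value of Bcor may be too low, as fragments of the stretch it shares with 2900008C10Rik may not be counted.

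Suv39h1, the H3K9 methyltransferase gene, kept a higher Dom share in WT than nearly all other genes. Its Dom share in WT was 0.495 and 0.400 on NPC day 3 and 0.350 (43 of 123 fragments, 95% Wilson interval 0.271 to 0.437) and 0.383 (31 of 81) on NPC day 6, the rank 4 from the highest of 240 genes. Untreated PCGF35 had 0.338 and 0.215 on NPC day 6, and PCGF35 with dTAG-13 had 0.524 and 0.486. The treated cells were thus in the range of day 0. In SPOC clones D9 and H1 it had 0.529 and 0.615, and in DelPID_SPOC clones A8 and G3 0.642 and 0.619, both above every library of day 0. DelPID had 0.25 (5 of 20) and 0.629 (78 of 124), which are the most unlike pair of its libraries. PCGF35_SPOC clones F10 and F6 had 0.292 and 0.483 untreated and 0.607 and 0.519 with dTAG-13. Over the 28 groups in order of the mean, from 0.643 in DelPID_SPOC on NPC day 3 to 0.277 in untreated PCGF35 on NPC day 6, only 2 of the 27 neighbouring pairs did not overlap. Intervals cover counting error only.

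Bcor, the PRC1.1 corepressor gene, had a low Dom share in WT and shares near those of day 0 in most libraries with the SPOC mutation. In WT it had 0.283 and 0.248 on NPC day 3 and 0.161 (56 of 348) and 0.115 (24 of 209) on NPC day 6. Untreated PCGF35 had 0.133 and 0.145 on NPC day 6 and treated PCGF35 0.301 and 0.343, with no overlap. DelPID had 0.279 and 0.326. These intermediate values lay below all 13 libraries of day 0. SPOC had 0.477 and 0.439, PCGF35_SPOC had 0.355 and 0.541 untreated and 0.640 and 0.510 with dTAG-13, and DelPID_SPOC had 0.440 and 0.448. With the SPOC mutation Bcor was thus in or above the range of day 0 in all NPC day 6 libraries but untreated F10. Of the neighbouring groups in order of the mean, 4 of 27 pairs did not overlap.

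Bcorl1, the paralogue of Bcor, started from the highest share and had few allelic fragments on the NPC days, from 8 to 229 per library. In WT it had 0.351 and 0.218 on NPC day 3 and 0.171 (7 of 41, 95% Wilson interval 0.0853 to 0.313) and 0.0746 (5 of 67, 0.0323 to 0.163) on NPC day 6. Untreated PCGF35 had 0.103 and 0.171, and treated PCGF35 0.317 and 0.410. These 6 libraries lay below the 0.591 that was the lowest of day 0. SPOC had 0.392 (20 of 51) and 0.567 (17 of 30), and untreated PCGF35_SPOC 0.500 and 0.525, also below day 0. Treated PCGF35_SPOC had 0.725 and 0.682 and DelPID_SPOC 0.552 and 0.726. DelPID replicate 1 had 8 allelic fragments and gets no share, and replicate 2 had 0.527. Of the neighbouring groups, 5 of 27 pairs did not overlap.

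Phf6, the gene of the NuRD-binding and UBTF-binding PHD protein, had the lowest share of the 5 in WT. In WT it had 0.0739 and 0.0937 on NPC day 3 and 0.0301 (12 of 399, 95% Wilson interval 0.0173 to 0.0518) and 0.0275 (11 of 400) on NPC day 6, the rank 200 of 240 genes. Untreated PCGF35 had 0.273 and 0.266 after 1 day and 0.0581 and 0.0546 on NPC day 6, and treated PCGF35 had 0.212 and 0.215 on NPC day 6. DelPID had 0.182 (10 of 55) and 0.291. Its 3 lowest groups, WT on both days and untreated PCGF35 on NPC day 6, did not overlap with each other or with any other group. In SPOC it had 0.298, 0.348 and 0.376 after 1 day, 0.247 and 0.270 on NPC day 3, and 0.127 (46 of 363) and 0.141 (36 of 256) on NPC day 6, the rank 203 of 239 genes. Untreated PCGF35_SPOC had 0.275 and 0.282 on NPC day 6. Phf6 was thus below its day 0 in both lines with the SPOC mutation and intact Polycomb recruitment. The groups with both arms hit were not, with 0.593 and 0.487 in treated PCGF35_SPOC and 0.442 and 0.484 in DelPID_SPOC. Over the 32 libraries of the NPC days Phf6 was the lowest of the 5 genes in 22. Of the neighbouring groups, 9 of 27 pairs did not overlap, the most of the 5 genes.

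Hcfc1, the gene of the HCF-1 scaffold, had the most fragments and a Dom share near that of the median X-linked gene in WT. There it had 0.195 and 0.180 on NPC day 3 and 0.114 (83 of 725) and 0.110 (51 of 462) on NPC day 6, the rank 97 of 240 genes, where the median of the group means was 0.0905. Untreated PCGF35 had 0.0901 and 0.0849 and treated PCGF35 0.197 and 0.222 on NPC day 6. DelPID had 0.239 and 0.266. None of these libraries came near the 0.458 that was the lowest of day 0. SPOC had 0.396 and 0.463, untreated PCGF35_SPOC 0.442 and 0.426, treated PCGF35_SPOC 0.610 and 0.471, and DelPID_SPOC 0.470 and 0.507. The groups with and without the SPOC mutation therefore did not overlap for Hcfc1 on NPC day 6, with a lowest library of 0.396 and a highest of 0.266. The medians of the group means over all genes with a ratio were also apart, at least 0.339 with and at most 0.303 without the mutation. How many other genes did likewise was not counted. Of the neighbouring groups, 8 of 27 pairs did not overlap.

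The course of silencing was read first in untreated PCGF35 cells, which have libraries at all 4 times. By NPC day 6 the Dom share of all 5 genes had fallen against day 0, the largest change on the log2 scale being that of Bcorl1 and Phf6 and the smallest that of Suv39h1. The change is that of the log2 ratio of Dom to Cast fragments, tested with edgeR's quasi-likelihood test over all genes with a ratio, with Benjamini-Hochberg adjustment at 0.05. It was -3.63 (SE 0.41, adjusted p = 2.47e-12) for Bcorl1, -3.62 (SE 0.25, adjusted p = 7.93e-21) for Phf6, -3.28 (SE 0.21, adjusted p = 3.93e-22) for Hcfc1, -2.45 (SE 0.26, adjusted p = 2.01e-13) for Bcor and -1.06 (SE 0.37, adjusted p = 0.00624) for Suv39h1. The median of all genes with a ratio was -3.68, and the share of 98.4% of them fell. A lower share can come from fewer Dom fragments or from more Cast fragments, whose levels are given further on. Without replicate 2 of day 6 the change of Suv39h1 was -0.72 (adjusted p = 0.0931 by edgeR).

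After 1 day of Xist in untreated PCGF35 ES cells, the share of 4 of the 5 genes had fallen, where that of 76.8% of the genes with a ratio fell. The changes were -1.08 for Bcorl1, -1.01 for Phf6, -0.91 for Hcfc1 and -0.70 for Bcor (SE 0.18 to 0.27, adjusted p of 0.000498, 3.99e-06, 1.53e-05 and 0.0133 by edgeR), and 0.43 for Suv39h1 (SE 0.34, adjusted p = 0.24 by edgeR). The call of Bcor was lost without replicate 1 of day 0, where its change was -0.38 (adjusted p = 0.261 by edgeR), and without either library of day 1. In WT cells the share of 4 of the 5 genes, all but Suv39h1, fell between NPC days 3 and 6, where 54.1% of the genes with a ratio did. These changes ran from -0.86 for Hcfc1 to -1.63 for Phf6, and that of Suv39h1 was -0.49 (SE 0.37, adjusted p = 0.251 by edgeR). The call of Bcorl1 in WT was lost without replicate 1 of day 3 (-1.13, adjusted p = 0.114) and without replicate 2 of day 6 (-0.79, adjusted p = 0.312 by edgeR).

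**Figure D1:**
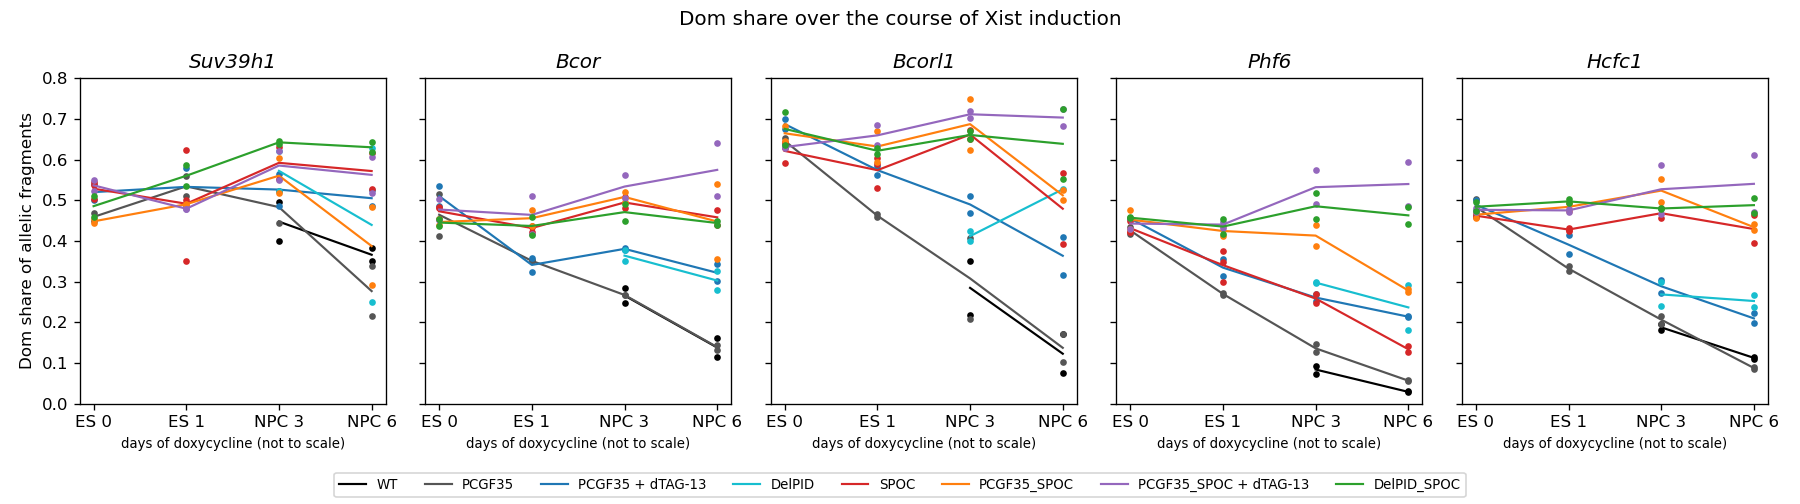
Dom share (y axis) of each of the 5 genes at ES days 0 and 1 and NPC days 3 and 6 (x axis, not to scale), by line. Points are libraries and lines join group means. In untreated PCGF35 cells the mean of Phf6 goes from 0.426 on day 0 to 0.0564 on NPC day 6, and that of Suv39h1 from 0.459 to 0.277.

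The SPOC domain was examined by comparing the SPOC line with WT. On NPC day 6 all 5 genes had a higher Dom share in SPOC, where 80.1% of the genes with a ratio did, and on NPC day 3 all 5 did, where 80.9% did. The changes of the log2 ratio on day 6 were 2.73 for Bcorl1 (SE 0.52, adjusted p = 4.27e-06), 2.55 for Hcfc1 (SE 0.21, adjusted p = 9e-17), 2.36 for Bcor (SE 0.26, adjusted p = 2.05e-12), 2.36 for Phf6 (SE 0.34, adjusted p = 5.76e-09) and 1.18 for Suv39h1 (SE 0.39, adjusted p = 0.00469 by edgeR), beside a median of 2.16 over all genes. On day 3 they ran from 0.81 for Suv39h1 (SE 0.36, adjusted p = 0.0358 by edgeR) to 2.43 for Bcorl1. The day 3 call of Suv39h1 was lost without replicate 2 of WT (0.52, adjusted p = 0.286) and without clone H1 of SPOC (0.63, adjusted p = 0.167 by edgeR). On NPC day 6 the summed neural markers had 146 and 117 CPM in WT against 54.5 and 32.2 CPM in SPOC, and the summed pluripotent markers 623 and 685 against 772 and 1023 CPM. Their part in the differences of share was not tested.

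A Dom share above WT is not the same as no silencing, and the SPOC line was therefore compared with its own day 0. By NPC day 6 the share of 2 of the 5 genes had fallen, where that of 63.4% of the genes with a ratio fell. Phf6 changed by -2.31 (SE 0.21, adjusted p = 6.71e-15 by edgeR), beside a median of -1.09 over all genes. Bcorl1 changed by -0.95 (SE 0.37, adjusted p = 0.022 by edgeR), and without clone D9 of day 6 by -0.33 (adjusted p = 0.656). The values of the other genes were -0.20 for Hcfc1 (SE 0.17), -0.08 for Bcor (SE 0.23) and 0.21 for Suv39h1 (SE 0.35), with adjusted p of 0.303, 0.79 and 0.618 by edgeR. After 1 day only Phf6 passed the test, with -0.55 (SE 0.16, adjusted p = 0.00475 by edgeR), where 30.9% of genes fell, and without clone C11 of day 1 it had -0.43 (adjusted p = 0.0607).

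**Figure D2:**
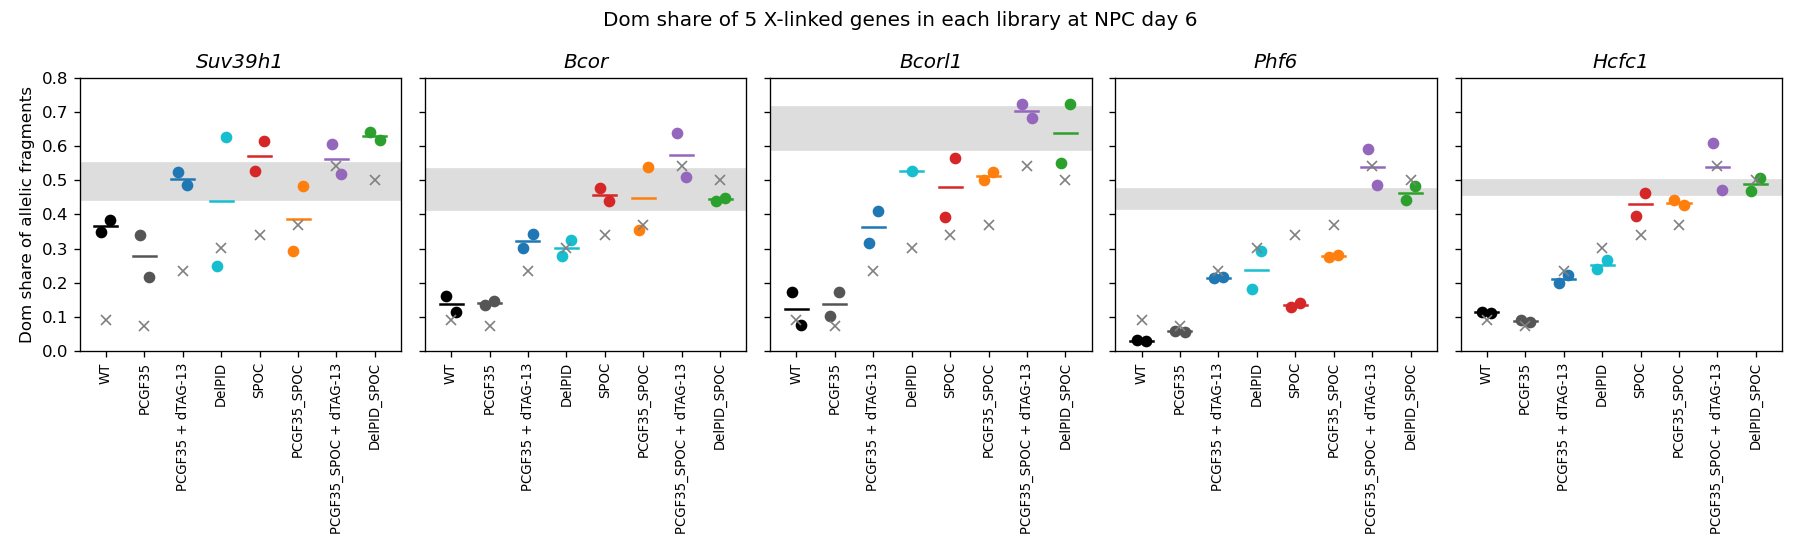
Dom share (y axis) of the 5 genes in each library of NPC day 6 for the 8 groups (x axis). Points are libraries, bars are group means, the gray band spans the 13 libraries of ES day 0 and gray crosses mark the median of the group means over the genes with a ratio. Phf6 is below the band in both SPOC libraries, at 0.127 and 0.141, where Bcor has 0.477 and 0.439.

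The Polycomb arm was examined by degrading PCGF3 and PCGF5 in PCGF35 cells. On ES day 0 none of the 5 genes differed by the test between treated and untreated cells (changes of 0.03 to 0.38), where 0% of the genes with a ratio were higher, with 3 at an unadjusted p under 0.05 by edgeR. After 1 day of Xist 0 of the 5 genes passed, where 15.9% did, and 3 of the 5 had an unadjusted p under 0.05. The nearest were Phf6 with 0.45 (SE 0.19, adjusted p = 0.0928) and Bcorl1 with 0.65 (SE 0.28, adjusted p = 0.0984 by edgeR). On NPC day 3 the share was higher with dTAG-13 in 4 of 5 genes, where it was higher in 62.6%. Phf6 had 1.16 and Bcorl1 1.12, Bcor had 0.75 and Hcfc1 0.63, and Suv39h1 had 0.21 (SE 0.33, adjusted p = 0.588 by edgeR). The call of Bcorl1 was lost without any 1 of 3 of the 4 libraries, and without replicate 2 of the untreated cells its change was 0.47 (adjusted p = 0.435 by edgeR). It was also lost in the groups alone (adjusted p = 0.0525) and with the replicate block (adjusted p = 0.0697 by edgeR). That of Hcfc1 was lost without replicate 2 of the treated cells (0.53, adjusted p = 0.0617 by edgeR).

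By NPC day 6 all 5 genes had a higher Dom share with dTAG-13, where 80.1% of the genes with a ratio had. The changes were 2.17 for Phf6 (SE 0.28, adjusted p = 1.09e-09), 1.95 for Bcorl1 (SE 0.53, adjusted p = 0.001), 1.56 for Bcor (SE 0.25, adjusted p = 1.57e-07), 1.45 for Hcfc1 (SE 0.23, adjusted p = 1.39e-07) and 1.33 for Suv39h1 (SE 0.37, adjusted p = 0.00136 by edgeR), with a median of 1.87 over all genes. Without replicate 1 of the untreated cells Bcorl1 had 1.45 (adjusted p = 0.0663 by edgeR). Against their own day 0 the treated cells had a lower Dom share in 4 of the 5 genes, where 92.3% of genes had. Bcorl1 changed by -1.96, Hcfc1 by -1.85, Phf6 by -1.62 and Bcor by -1.13, and Suv39h1 had -0.11 (SE 0.36, adjusted p = 0.758 by edgeR).

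DelPID tested the loss of the Polycomb-recruiting part of Xist. On NPC day 6 all 5 genes had a higher Dom share in DelPID than in WT, where 85.8% of the genes with a ratio had. Phf6 had the largest change of the 5, 3.65 (SE 0.31, adjusted p = 3.68e-16 by edgeR), with a median of 2.13 over all genes, and Bcorl1 had 3.10 (SE 0.55, adjusted p = 1.25e-06 by edgeR). Bcor and Hcfc1 had 1.47 each, with SE 0.29 and 0.24. Suv39h1 had 1.16 (SE 0.41, adjusted p = 0.0085 by edgeR), but without replicate 2 of DelPID its change was -0.78 (adjusted p = 0.456), so that library decided its direction. Replicate 1 of DelPID is the shallowest library, with 5 Dom of 20 allelic fragments for Suv39h1 and 4 of 8 for Bcorl1.

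The combined lines were read for the Dom share with both arms hit. Untreated PCGF35_SPOC cells exceeded untreated PCGF35 cells on NPC day 6 in 4 of the 5 genes, where 90.7% of genes were higher. Hcfc1 had 2.99, Bcorl1 2.82, Phf6 2.67 and Bcor 2.39, and Suv39h1 had 0.53 (SE 0.41, adjusted p = 0.206 by edgeR). Within PCGF35_SPOC, dTAG-13 added to the share of all 5 genes on NPC day 6 in the fit without clones, where 70.3% of genes were higher. Phf6 had the largest change, 1.61 (SE 0.21, adjusted p = 2.87e-09), followed by Bcorl1 with 1.24, Suv39h1 with 1.16, Bcor with 0.67 and Hcfc1 with 0.62, beside a median of 0.96 (adjusted p of 0.00108, 0.00865, 0.0124 and 0.0043 by edgeR).

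These libraries are paired by clone, and with the clone as a replicate block in a fit of these groups alone 0 of the 5 genes passed, with adjusted p of 0.167 for Phf6, 0.219 for Bcorl1, 0.261 for Suv39h1, 0.433 for Bcor and 0.515 for Hcfc1 by edgeR. Clone F10 with dTAG-13 had the highest median share over the genes with a ratio of all libraries, 0.581, and summed feeder markers (Col1a1, Col1a2, Col3a1, Dcn and Thy1) of 139 CPM, the highest of the 58 libraries. Without it 2 of the 5 genes passed, and 3 passed without the untreated library of F10. For a clone that combines the degron and the SPOC mutation, the paper describes an upward skew of the ratio in differentiated cells. It interprets the skew as selection for cells that had lost the Cast X. The paper also describes a DelPID_SPOC clone as tetraploid. The parts of the feeder signal, of X loss and of ploidy in the shares of the combined lines were not tested.

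From day 0 to NPC day 6, the Dom share fell in 2 of the 5 genes in untreated PCGF35_SPOC cells, where it fell in 62.2% of genes. These were Phf6 with -1.11 (SE 0.21, adjusted p = 7.31e-06) and Bcorl1 with -0.91 (SE 0.31, adjusted p = 0.0102 by edgeR), the latter with -0.82 (adjusted p = 0.149) without clone F10 of day 6. With dTAG-13 added, 0 of the 5 fell, where 0.407% of genes did, and 2 of the 5 had an unadjusted p under 0.05 by edgeR. Their values ran from 0.17 for Suv39h1 to 0.56 for Phf6, and without clone F6 of day 6 3 genes passed. In DelPID_SPOC 0 of the 5 fell, where 1.63% of genes did, and 1 of the 5 had an unadjusted p under 0.05 by edgeR. Their values ran from -0.18 for Bcorl1 to 0.88 for Suv39h1 (SE 0.35, adjusted p = 0.284 by edgeR). DelPID_SPOC exceeded DelPID on NPC day 6 in Hcfc1 (1.43), Phf6 (1.20) and Bcor (0.80), 3 of 5 genes, where 70.7% of genes were higher. The call of Bcor was lost without replicate 2 of DelPID (1.04, adjusted p = 0.0521 by edgeR).

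Whether dTAG-13 acted alike with and without the SPOC mutation was tested as an interaction on NPC day 6. Hcfc1 had a smaller change in PCGF35_SPOC than in PCGF35, by -0.83 (SE 0.30, adjusted p = 0.0421 by edgeR), 1 of 5 genes where 19.5% of genes had a smaller change. The other values ran from -0.16 for Suv39h1 to -0.90 for Bcor (SE 0.35, adjusted p = 0.0571 by edgeR), beside a median of -0.78. The call of Hcfc1 was lost in 6 of the 8 fits that left out a library.

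**Figure D3:**
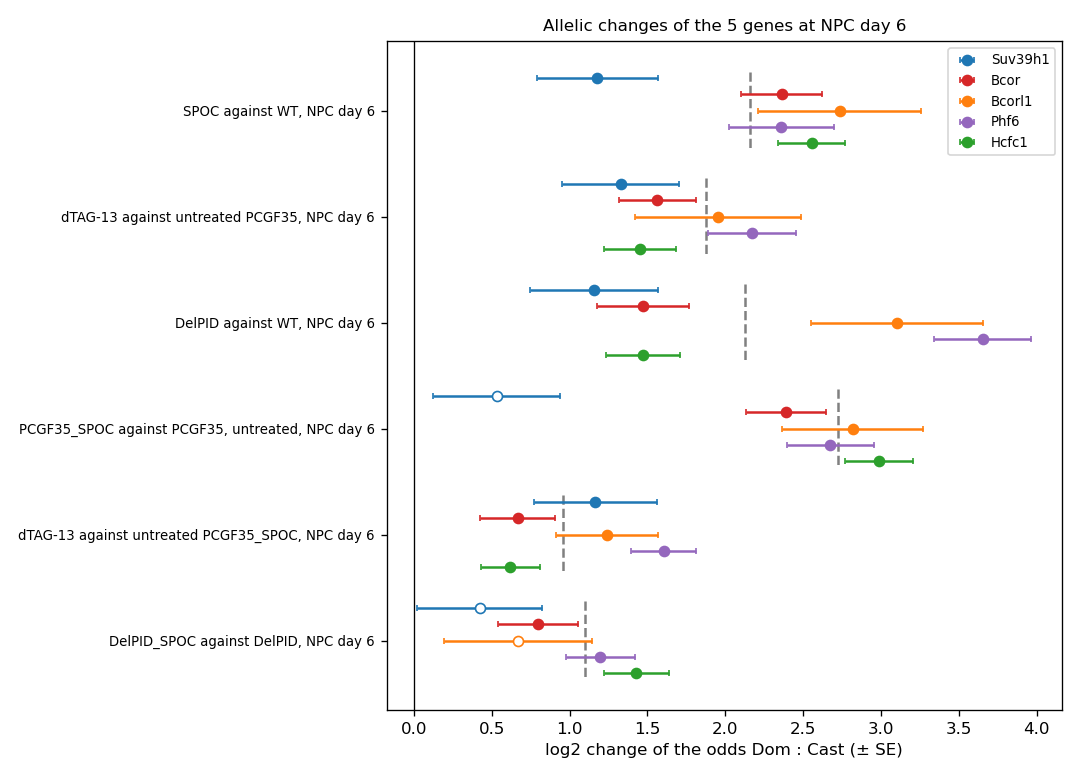
Change of the log2 ratio of Dom to Cast fragments (x axis) for the 5 genes, by color, in 6 comparisons of NPC day 6 (y axis), with bars of 1 SE. Filled points have an adjusted p under 0.05 in the fit over all libraries, open points do not, and the dashed gray lines are the median of the genes with a ratio. Suv39h1 has the smallest change of the 5 genes in the comparison of SPOC with WT, 1.18.

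Silencing of the Dom allele and change of a gene with differentiation meet in the total RNA, which sums both alleles and the fragments with no allelic information. Total counts were tested over 16227 genes with edgeR. In bulk RNA, fewer cells of a type and less RNA per cell cannot be told apart. No total count of the 5 genes passed in any comparison between lines or treatments at the same day. In these comparisons 0% of all genes passed between SPOC and WT on either day, between treated and untreated PCGF35 on any day, between treated and untreated PCGF35_SPOC, between PCGF35_SPOC and PCGF35, in the interaction, and between the NPC days of WT. The genes with an unadjusted p under 0.05 numbered 66 to 1791 in them by edgeR, and DESeq2 called 0 of the 5 genes in each. In several of them this number was below what a threshold of 0.05 lets through when no gene differs. The test was thus cautious there, and 0% passing does not show equal levels. DelPID_SPOC differed from DelPID at 0.0308% of genes and DelPID from WT at 1.25%, with 0 of the 5 among them. After 1 day of Xist 0.0247% of genes differed in PCGF35 and 0.0123% in SPOC, again with 0 of the 5. Fits with a replicate block gave other calls. With clones as the block, Phf6 passed after 1 day in SPOC, with -0.41 (adjusted p = 0.000624 by edgeR). With replicate numbers as the block, Bcor and Phf6 passed after 1 day in untreated PCGF35, with -0.51 and -0.35 (adjusted p of 2.54e-06 and 0.000171 by edgeR), and Bcor passed between the NPC days of WT, with -0.36 (adjusted p = 0.0144 by edgeR).

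**Figure D4:**
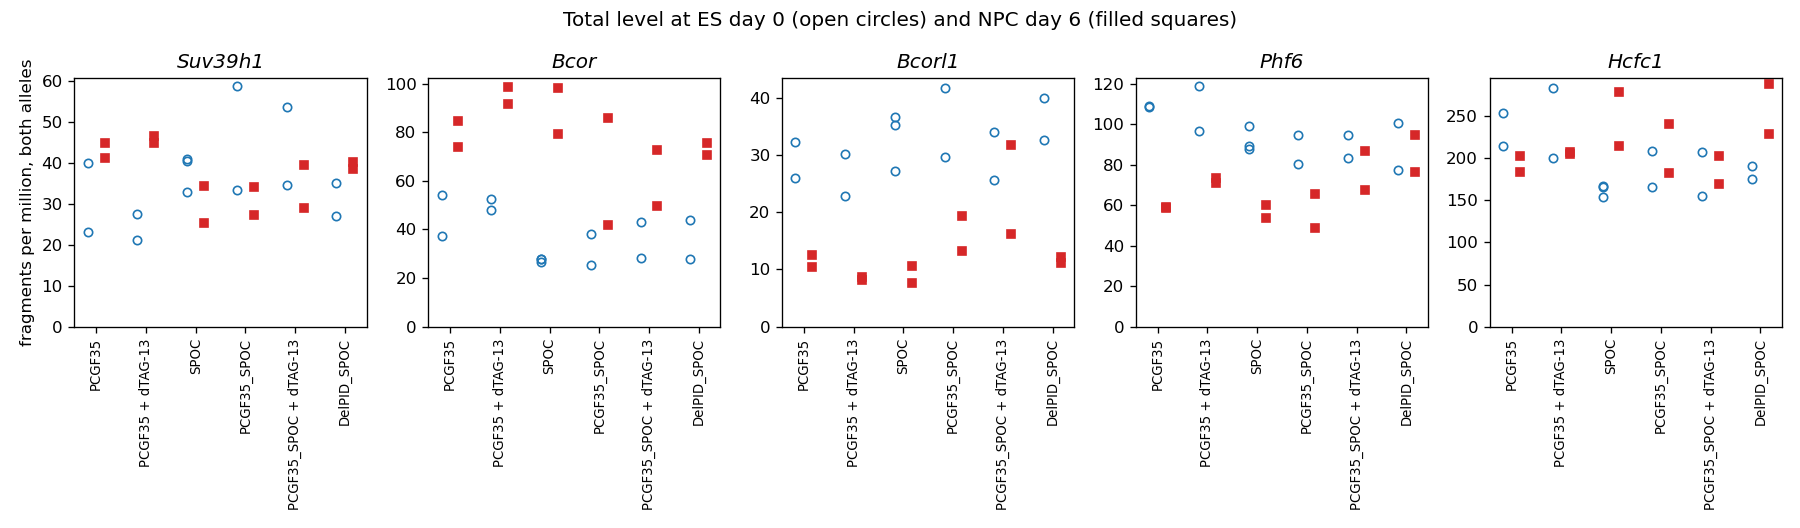
Total level of the 5 genes in CPM, both alleles together (y axis), on ES day 0 (open circles) and NPC day 6 (filled squares) by library in the 6 lines with both times (x axis). Bcor is higher and Bcorl1 lower on NPC day 6 in the SPOC line, at 98.3 and 79.4 CPM against 26.6 to 27.7 for Bcor.

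From ES day 0 to NPC day 6 the paralogues Bcor and Bcorl1 moved in opposite directions. In SPOC, Bcor had 27.6, 26.6 and 27.7 CPM in the 3 libraries of day 0 and 98.3 and 79.4 CPM on NPC day 6, a log2 change of 1.78 (SE 0.31, adjusted p = 5.75e-05 by edgeR). Bcorl1 had 35.2, 27.2 and 36.6 CPM on day 0 and 10.5 and 7.63 CPM on NPC day 6, a change of -1.78 (SE 0.29, adjusted p = 1.7e-05 by edgeR). Neither gene overlapped between the days. Bcor also rose in DelPID_SPOC, by 1.02 (SE 0.35, adjusted p = 0.0382 by edgeR), and had 0.81, 0.94, 1.05 and 0.80 in untreated and treated PCGF35 and PCGF35_SPOC, with adjusted p of 0.0758, 0.0741, 0.0611 and 0.166 by edgeR. The call in DelPID_SPOC was lost in the groups alone (adjusted p = 0.131) and without any 1 of 3 of the 4 libraries, with 0.72 (adjusted p = 0.26 by edgeR) without clone A8 of day 0. With replicate numbers as a block Bcor passed in untreated and treated PCGF35 (adjusted p of 0.013 and 0.0118 by edgeR).

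Bcorl1 fell in 5 of the 6 lines or treatments with both times. Beside SPOC these were PCGF35 without and with dTAG-13 (-1.32 and -1.65), untreated PCGF35_SPOC (-1.08) and DelPID_SPOC (-1.65), and treated PCGF35_SPOC had -0.29 (SE 0.29, adjusted p = 0.589 by edgeR). The call in DelPID_SPOC was lost in the groups alone (adjusted p = 0.111 by edgeR). In treated PCGF35_SPOC clone F10 had 31.7 CPM of Bcorl1 on NPC day 6 and clone F6 16.2 CPM, against 25.7 and 33.9 CPM on day 0. Phf6 fell in SPOC (-0.61), in untreated and treated PCGF35 (-0.86 and -0.56) and in untreated PCGF35_SPOC (-0.57), and had -0.06 in DelPID_SPOC (SE 0.14, adjusted p = 0.805 by edgeR). The call of Phf6 in treated PCGF35 was lost in the groups alone (adjusted p = 0.087), with the replicate block (adjusted p = 0.0873) and without any 1 of 3 of the 4 libraries, with -0.39 (adjusted p = 0.197 by edgeR) without replicate 1 of day 0. Hcfc1 rose in SPOC alone, by 0.69 (SE 0.22, adjusted p = 0.0147 by edgeR), and had 0.47 (adjusted p = 0.227 by edgeR) without clone D9 of NPC day 6. Whether it differed from the other lines was not tested. Suv39h1 rose in treated PCGF35 alone, by 0.93 (SE 0.31, adjusted p = 0.0475 by edgeR), and the call was lost without any 1 of the 4 libraries, with adjusted p of 0.0685 to 0.276 by edgeR.

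By comparison these calls count 2 of 5 genes in untreated PCGF35, 3 in treated PCGF35, 4 in SPOC, 2 in untreated PCGF35_SPOC, 0 in treated PCGF35_SPOC and 2 in DelPID_SPOC. Of all genes tested, 29.5%, 11.4%, 34.1%, 7.37%, 5.37% and 19.2% passed in the same order. With clones as a replicate block the calls of Bcorl1 and Phf6 in untreated PCGF35_SPOC were lost, with adjusted p of 0.150 and 0.258 by edgeR. The change of culture moved with these values, since in untreated PCGF35 5 of 6 pluripotent markers fell (Zfp42 by 3.54 and Klf2 by 2.63 on the log2 scale), 2 of 5 neural markers rose (Nes by 3.35 and Vim by 1.98) and 3 of 5 feeder markers rose and 1 fell. In SPOC 2 of 6 pluripotent markers fell, 2 of 5 neural markers rose and 0 of 5 feeder markers passed. In DelPID_SPOC 1 of 6 pluripotent markers rose and 1 fell, 2 of 5 neural markers rose, and 0 of 5 feeder markers passed.

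The Cast allele, which carries no inducible Xist, was read for change with differentiation apart from silencing of the Dom X. This reading takes the Cast X as kept in all cells and unaffected by silencing of the Dom X, which was not tested. Its fragments were tested over 13675 genes with the same test. Bcor rose on the Cast X in untreated PCGF35 by 1.70 (SE 0.33, adjusted p = 0.000532), in treated PCGF35 by 1.41 (SE 0.32, adjusted p = 0.00786), in SPOC by 1.72 (SE 0.30, adjusted p = 6.5e-05) and in DelPID_SPOC by 1.04 (SE 0.32, adjusted p = 0.0334 by edgeR). The call in treated PCGF35 was lost without replicate 1 of day 0 (adjusted p = 0.109) or replicate 2 of NPC day 6 (adjusted p = 0.0994 by edgeR). That in DelPID_SPOC was lost in the groups alone (adjusted p = 0.218) and without any 1 of 3 of the 4 libraries, with 0.78 (adjusted p = 0.216 by edgeR) without clone A8 of day 0. In untreated PCGF35 the Cast fragments of Bcor went from 8.10 ± 0.820 to 26.1 ± 2.12 CPM and its Dom fragments from 7.27 ± 2.78 to 4.23 ± 0.636 (SD, n = 2 each). In treated PCGF35 the means went from 8.92 to 22.6 CPM for Cast and from 9.29 to 10.8 CPM for Dom fragments, so that the lower share of Bcor there came with more Cast and not with fewer Dom fragments. In SPOC the Cast fragments went from 5.39 ± 0.370 (SD, n = 3) to 17.3 ± 1.89 (SD, n = 2) and the Dom fragments from 4.84 ± 0.388 to 14.8 ± 3.19. Both alleles of Bcor were thus higher in SPOC on NPC day 6, with a Dom share that stayed near that of day 0.

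Phf6 gave the opposite picture, since its Cast fragments did not pass the test in any comparison. In untreated PCGF35 they were 26.7 ± 0.341 CPM on day 0 and 24.5 ± 0.0190 on NPC day 6, while its Dom fragments were 19.8 ± 1.25 and 1.46 ± 0.0690 (SD, n = 2 each). In SPOC the Cast fragments were 23.7 ± 2.22 (SD, n = 3) and 22.1 ± 3.62 (SD, n = 2), and the Dom fragments 17.98 ± 1.20 and 3.39 ± 0.269. The Cast change of Phf6 was -0.11 (SE 0.17, adjusted p = 0.696) in untreated PCGF35 and -0.07 (SE 0.16, adjusted p = 0.801 by edgeR) in SPOC. Bcorl1 fell on the Cast X in SPOC by 1.37 (SE 0.38, adjusted p = 0.00673) and in DelPID_SPOC by 1.64 (SE 0.40, adjusted p = 0.00736 by edgeR), and had -0.18 in untreated PCGF35 (SE 0.38, adjusted p = 0.777 by edgeR). The call of Bcorl1 in SPOC was lost without clone H1 of NPC day 6 (-0.95, adjusted p = 0.163), and that in DelPID_SPOC in the groups alone (adjusted p = 0.213) and without any 1 of 3 of the 4 libraries (adjusted p of 0.0597 to 0.134 by edgeR). Hcfc1 and Suv39h1 passed on the Cast X in no comparison of the fit over all libraries. With clones as a replicate block Hcfc1 rose in SPOC by 0.66 (adjusted p = 0.0212), and with replicate numbers as the block Bcorl1 was lower in treated than in untreated PCGF35 on NPC day 6, by -0.80 (adjusted p = 0.0483 by edgeR).

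On the Cast X 21.3% of genes passed in untreated PCGF35 from ES day 0 to NPC day 6, where 1 of the 5 genes did, 5.9% in treated PCGF35 with 1 of 5, 27.1% in SPOC with 2, 3.41% in untreated PCGF35_SPOC with 0, 2.57% in treated PCGF35_SPOC with 0, and 11.5% in DelPID_SPOC with 2. Among comparisons at the same stage 0 of the 5 genes passed. There 3.36% of genes passed between DelPID and WT, 0.0878% between DelPID_SPOC and DelPID, 0.0219% between the NPC days of WT, 0.00731% between SPOC and WT on NPC day 6 and after 1 day in PCGF35 and in SPOC, and 0% in the others. As with total counts, the test was cautious in several of these. Between treated and untreated PCGF35 on ES day 1, for example, 96 genes had an unadjusted p under 0.05 by edgeR.

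Partners of the encoded proteins were read from lists of genes, most of them autosomal. Of all genes tested, 17.3% rose and 16.8% fell from ES day 0 to NPC day 6 in SPOC, 13.6% and 15.9% in untreated PCGF35, and 9.83% and 9.41% in DelPID_SPOC, and the counts below stand beside these shares. None of their total counts passed in a comparison between lines, treatments or days at the same stage. From ES day 0 to NPC day 6 in SPOC, 9 of 12 NuRD and UBTF partners of PHF6 rose and 2 fell, with a median change of 0.76 beside -0.00135 over all genes. Among them were the NuRD subunits Mta3 (1.38), Mbd3 (1.20) and Mta1 (0.98). In untreated PCGF35 5 of 12 rose, Mta1 (0.73) and the histone chaperone Rbbp4 (0.69) among them, and 1 fell, the X-linked Rbbp7 (-1.40).

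Of 10 heterochromatin partners of SUV39H1, 6 rose and 1 fell in SPOC, among them the histone chaperone Daxx (1.22), the heterochromatin protein Cbx1 (0.93) and the H3K9 methyltransferase Ehmt1 (0.91). In untreated PCGF35 Ehmt1 (0.65) rose and the X-linked remodeller Atrx (-1.97) fell. Of 9 PRC1.1 partners of BCOR and BCORL1, Kdm2b (1.80) rose in SPOC, while Yaf2 (-0.91) and Skp1a (-0.69) fell. In untreated PCGF35 Skp1a (-0.99) and the deubiquitinase Usp7 (-0.60) fell and 0 rose. In DelPID_SPOC the ubiquitin ligase Ring1 (1.68) rose, while Skp1a (-0.70) and Yaf2 (-0.60) fell. Of 12 partners of HCF-1, 1 rose and 5 fell in untreated PCGF35, among them the X-linked glycosyltransferase Ogt (-1.03) and the methyltransferase subunits Ash2l (-0.83) and Rbbp5 (-0.76), and 2 rose and 1 fell in SPOC.

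A further list holds 25 other X-linked chromatin genes. Of the 14 with an allelic ratio, all 14 fell by NPC day 6 in untreated PCGF35 and all 14 in treated PCGF35, 9 fell in SPOC and in untreated PCGF35_SPOC, and 0 fell in treated PCGF35_SPOC and in DelPID_SPOC. Over all genes with a ratio 98.4%, 92.3%, 63.4%, 62.2%, 0.407% and 1.63% fell in the same order, so these counts lie near the background. In total RNA 14 of the 23 tested fell in untreated PCGF35, 7 in treated PCGF35, 7 in SPOC with 1 that rose, and 3 in DelPID_SPOC, where 15.9%, 6.95%, 16.8% and 9.41% of all genes fell. Those shares are over all genes tested, most of them autosomal. How many X-linked genes at large fell in total RNA was not counted, so the counts are not a trait of chromatin genes. The largest falls were those of Atrx (-1.97), Zmym3 (-1.80) and Hmgb3 (-1.63) in untreated PCGF35 and of Brwd3 (-2.18), Msl3 (-1.73) and Hmgb3 (-1.62) in SPOC.

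Genes within 100 kb of the 5 genes were read for their Dom share. Near Suv39h1, which had 0.366 in WT on NPC day 6, Rbm3 had 0.220, Tbc1d25 0.213 and Wdr13 0.203. Near Bcorl1 (0.123), Utp14a had 0.357, Aifm1 0.0718 and Elf4 0.0530. Near Phf6 (0.0288), the purine salvage gene Hprt had 0.0974 in WT and 0.266 in SPOC, where Phf6 had 0.134. Near Hcfc1 (0.112), which has 6 neighbours with a ratio, Irak1 had 0.103, Arhgap4 0.0455 and Naa10 0.194. Bcor has 0 neighbours with a ratio in this window. These shares are given as a description, without a test.

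Across the 28 groups, the gene whose Dom share followed each of the 5 most closely was Shroom4 for Suv39h1 (Pearson's r = 0.777, then Rbm3 with 0.761), Slc6a8 for Bcor (0.968, then Slc35a2 with 0.967), Brcc3 for Bcorl1 (0.974, then Rp2h with 0.973), Flna for Phf6 (0.978, then Zfp185 with 0.975) and Rps4x for Hcfc1 (0.990, then Usp9x with 0.989). The groups share lines and days, so these values are descriptions. The r of Suv39h1 with its nearest gene was the lowest of the 5. In log2 CPM the nearest were Rassf6 (0.695) and Rdh10 (0.671) for Suv39h1, Bend3 (0.958) and Gm16880 (0.947) for Bcor, 2510009E07Rik (0.965) and Gng12 (0.962) for Bcorl1, 2610002M06Rik (0.889) and Rab33a (0.878) for Phf6, and Enox1 (0.891) and Urm1 (0.886) for Hcfc1. Bcor and Bcorl1 had r = -0.925 with each other in log2 CPM over the groups.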

How the data were processed

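The genes, lists and comparisons were chosen with earlier results of these data known. As the labels and the methods of the study state, the authors filtered out ribosomal reads with Bowtie2 (version 2.3.2), aligned pairs with STAR (version 2.4.2a) to mm10 with strain differences masked, split them by allele and counted fragments per gene with featureCounts on the annotated strand. The deposited counts are raw fragment counts (total, Cast and Dom), and the deposited ratio table holds the fraction Dom / (Dom + Cast) per X-linked gene, which recomputation matched. Here counts were tested with edgeR 4.0.16 (quasi-likelihood, all 58 libraries, 1 effect per group). Allele counts had a term for each library, and total and Cast counts were filtered with filterByExpr and scaled by TMM. Genes were adjusted together by Benjamini-Hochberg at 0.05. The test was checked on simulated data. CPM is a count scaled to 1000000 fragments of all genes in a library.

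Alternatives were the fragment minimum (50 in place of 10), a wider gene set, limma 3.58.1 on shares or log2 odds (pseudocount 0.5), DESeq2 1.42.0, other scaling, no filter, the compared groups alone, a replicate block and leaving out each library. Named were the 5 genes, at most 3 changed genes of a list per comparison by size of change, and the 2 genes most correlated with each of the 5. Clones pair libraries of the SPOC lines, as each was grown from a single edited cell. Within clones, the deviations of libraries from their group mean correlated by 0.0587 to 0.829 over 13 pairs for log2 CPM and by -0.113 to 0.297 for shares. These pairs come from 6 comparisons and are not independent, since in a group of 2 libraries the 2 deviations mirror each other. Replicate pairs differed by more than counting noise (chi-square per degree of freedom 11.5 to 138), so none was counted as a repeat. Promoters came from RefSeq on GRCm38.p6, the build of mm10; Phf6 was matched to none.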

Additional observations from a re-analysis of the deposited data

Results flagged for a closer look

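The interaction of dTAG-13 with the SPOC mutation on NPC day 6 passed its test for Hcfc1, with a change of the log2 ratio of Dom to Cast fragments that was smaller in PCGF35_SPOC than in PCGF35 by -0.83 (SE 0.30, adjusted p = 0.0421 by edgeR). The median over all genes with a ratio was -0.78. The call was lost without most single libraries, as given above, and in the groups compared alone (-0.84, adjusted p = 0.421 by edgeR). On the share itself the interaction was -0.0155 (adjusted p = 0.863 by limma).

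In 4 of the genes the Dom share moved from ES day 0 to NPC day 6 in opposite directions in different lines. The days did not overlap in either line, and these differences between lines were not tested. How many other genes with a ratio did likewise was not counted. The median of the group means over all genes with a ratio went from 0.522 to 0.542 in PCGF35_SPOC with dTAG-13. It went from 0.525 to 0.501 in DelPID_SPOC and from 0.507 to 0.0737 in untreated PCGF35. By clone, the median share in PCGF35_SPOC with dTAG-13 on NPC day 6 was 0.581 in F10 and 0.500 in F6. In F10 and F6 Bcor had 0.640 and 0.510, Bcorl1 0.725 and 0.682, and Phf6 0.593 and 0.487. The part of X loss in these shares, described above for a clone of this kind, was not tested. The mean share of Suv39h1 was higher by 0.145 in DelPID_SPOC and changed by -0.182 in untreated PCGF35. That of Bcor was higher by 0.0975 in PCGF35_SPOC with dTAG-13 and changed by -0.326 in untreated and -0.189 in treated PCGF35. That of Bcorl1 was higher by 0.0726 in PCGF35_SPOC with dTAG-13, while the changes in untreated PCGF35_SPOC, SPOC, treated PCGF35 and untreated PCGF35 were -0.153, -0.142, -0.324 and -0.509. That of Phf6 was higher by 0.0973 in PCGF35_SPOC with dTAG-13, while the changes in the same 4 groups were -0.174, -0.298, -0.242 and -0.370. The rises in PCGF35_SPOC with dTAG-13 did not pass the test on allele counts (adjusted p of 0.36 for Bcor, 0.432 for Bcorl1 and 0.256 for Phf6 by edgeR), nor did that of Suv39h1 in DelPID_SPOC (0.284).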

How the results depend on the processing

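Of the 59 calls of single genes on allele counts, 39 held under every alternative and every left-out library, as did 6 of 13 on total counts and 2 of 6 on Cast counts. The Suv39h1 change in DelPID against WT on NPC day 6 reversed to -0.78 without replicate 2 of DelPID, and ran from -0.78 to 1.57 over the left-out libraries.

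On allele counts, the number of the 5 genes called changed by over 1.5 times as follows. In fits of the compared groups alone it was 2 for dTAG-13 against untreated PCGF35 on ES day 1, 1 for dTAG-13 against untreated PCGF35_SPOC, 1 for untreated PCGF35_SPOC against its day 0 and 0 for the interaction, and it was 0 for dTAG-13 against untreated PCGF35_SPOC with the replicate block. With at least 50 allelic fragments it was 3 for DelPID against WT, 1 for SPOC against its day 0 and 2 for the interaction. With limma on the share it was 5 for DelPID_SPOC against DelPID, 2 for WT between the NPC days and 0 for the interaction, which also had 0 in the wider gene set. On total counts the paired fits (replicate block) gave 1 for WT between the NPC days, 2 for untreated PCGF35 after 1 day, 1 for SPOC after 1 day and 0 for untreated PCGF35_SPOC against its day 0, which had 0 in the groups alone, as had DelPID_SPOC on total and Cast counts. On Cast counts the block gave 1 for dTAG-13 against untreated PCGF35 on NPC day 6. The cause of these changes was not tested. The replicate block changed no other count by over 1.5 times.

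Leaving out each library gave, on allele counts, 2 to 4 genes for dTAG-13 against untreated PCGF35 on NPC day 3, 2 to 5 for dTAG-13 against untreated PCGF35_SPOC, 0 to 1 for SPOC after 1 day, 1 to 2 for SPOC, 1 to 3 for untreated and 0 to 3 for treated PCGF35_SPOC from ES day 0 to NPC day 6, and 0 to 2 for the interaction. On total counts it gave 1 to 2 for treated PCGF35, 0 to 3 for untreated PCGF35_SPOC and 1 to 2 for DelPID_SPOC from ES day 0 to NPC day 6. On Cast counts it gave 0 to 1 for treated PCGF35, 1 to 2 for SPOC, 0 to 1 for treated PCGF35_SPOC and 0 to 1 for DelPID_SPOC.

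In the other groups the labels do not say that a replicate number marks a shared experiment, while the study states that dTAG-13-treated and untreated cells were grown side by side. Deviations of same-numbered libraries correlated by -0.115 to 0.781 for log2 CPM, with 12 of 18 values above 0.1, and by -0.129 to 0.311 for shares, with 2 of 18 above 0.1. These 18 values come from 9 comparisons. In a group of 2 libraries the 2 deviations mirror each other, so each comparison gives in effect 1 value. Between treated and untreated PCGF35 of the same day the values ran from 0.305 to 0.770 for log2 CPM and from 0.0348 to 0.311 for shares. The lowest values for log2 CPM came from other comparisons. Whether the numbers pair the libraries is not settled by the labels, and both fits are given. WT was also differentiated beside clones of SPOC, but the labels do not tie a culture to a clone, so no paired fit was made there. Groups of 2 libraries limit all comparisons but that of SPOC after 1 day, which has 3 against 3, and depth limits Bcorl1 and Suv39h1 most, with 8 and 20 allelic fragments in DelPID_NPC_d6 replicate 1.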
